A study of Mus musculus with 6 samples.

Results

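Bone morphogenetic proteins (BMPs), transforming growth factors beta (TGF-beta) and activins form a family of secreted signals, and the 55 genes described here encode 16 ligands (the protease gene Bmp1 counted among them), 10 antagonists and modulators, 12 receptors, 8 Smads, 5 target genes and 4 latent TGF-beta binding proteins. They were chosen by name as genes of the pathway, with earlier results of these data known, and each matched 1 of the 54532 genes counted. Primary wild type mouse bone marrow mesenchymal stem cells (mBMSCs), adherent cells of the marrow with the capacity to become osteoblasts, were grown in osteogenic medium for 7 days, either without added nickel (control, 3 libraries) or with 0.1 μM Ni (3 libraries), and their mRNA was sequenced. All 6 cultures received the same medium, which per the labels contained β-glycerophosphate at 10 mM, ascorbic acid at 50 μg/mL and dexamethasone at 100 nM; the study's methods give a lower dexamethasone concentration. The series' description gives the 3 libraries of each group as independent biological replicates, and whether they came from separate mice is not given in the sources used here, so p-values measure the spread between these cultures. The comparison asks how the transcripts of this pathway stood in mineralizing cells with low-dose nickel relative to cells without it.

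BMP and TGF-beta ligands bind pairs of type I and type II receptor kinases at the cell surface. BMP receptors phosphorylate Smad1, Smad5 and Smad9, TGF-beta and activin receptors phosphorylate Smad2 and Smad3, and both sets act in the nucleus with Smad4. Smad6, Smad7 and the decoy receptor gene Bambi are themselves induced by the pathway and restrain it, and the Id genes are classical direct targets of the BMP Smads. In bone, BMPs drive stromal cells towards osteoblasts, while TGF-beta is stored in the matrix in a latent complex with its binding proteins.

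Promoters of 4 members are shown because these genes are direct readouts of Smad signalling and their transcripts did not all lie on the same side of the controls. The stretches run from 250 bases before to 50 bases after the RefSeq start on GRCm38.p6, in the direction of transcription. They cover chr12:25096043-25096342 (minus strand) for Id2, chr4:136143572-136143871 (plus strand) for Id3, chr13:48260866-48261165 (plus strand) for Id4 and chr9:64022010-64022309 (minus strand) for Smad6. The Id2 and Id3 windows lie within the genes as counted (25093799 to 25097140 and 136143497 to 136145755), whose starts thus differ from RefSeq. The Id4 window ends before the gene as counted, which begins at 48261228, so the Id4 start differs as well. Distances to the start below hold for RefSeq. Capitals mark GGCGCC, a GC-rich element bound by the BMP Smads, in Id2 and Id4, and GTCTAGAC, the palindromic Smad-binding element, in Smad6.
Id2: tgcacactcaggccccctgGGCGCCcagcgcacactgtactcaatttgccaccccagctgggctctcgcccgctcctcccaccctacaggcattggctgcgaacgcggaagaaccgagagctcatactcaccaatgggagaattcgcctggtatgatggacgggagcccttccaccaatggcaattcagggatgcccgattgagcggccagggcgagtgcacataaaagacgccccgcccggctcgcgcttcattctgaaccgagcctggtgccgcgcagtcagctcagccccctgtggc
Id3: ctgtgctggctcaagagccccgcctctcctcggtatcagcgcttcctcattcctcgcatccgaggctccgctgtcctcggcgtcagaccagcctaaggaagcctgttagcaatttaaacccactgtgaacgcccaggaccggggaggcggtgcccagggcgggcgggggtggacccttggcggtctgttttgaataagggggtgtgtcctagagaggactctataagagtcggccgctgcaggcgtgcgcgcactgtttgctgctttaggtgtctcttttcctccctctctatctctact
Id4: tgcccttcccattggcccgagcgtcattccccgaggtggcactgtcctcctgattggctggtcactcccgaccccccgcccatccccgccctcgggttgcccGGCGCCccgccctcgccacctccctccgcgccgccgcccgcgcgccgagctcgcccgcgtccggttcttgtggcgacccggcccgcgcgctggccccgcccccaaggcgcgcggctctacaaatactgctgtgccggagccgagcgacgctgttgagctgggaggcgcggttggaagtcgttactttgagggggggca
Smad6: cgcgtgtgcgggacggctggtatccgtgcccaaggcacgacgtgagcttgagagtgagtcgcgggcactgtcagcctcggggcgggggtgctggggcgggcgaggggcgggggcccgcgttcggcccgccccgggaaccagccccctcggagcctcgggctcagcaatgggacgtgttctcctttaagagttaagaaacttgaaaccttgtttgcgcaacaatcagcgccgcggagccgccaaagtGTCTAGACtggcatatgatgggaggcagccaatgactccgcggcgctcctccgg
GGCGCC began 231 bases before the start in Id2 and 148 bases before it in Id4, and was not in the Id3 window. GTCTAGAC began 4 bases before the Smad6 start and ran across it. Both strands were searched over 46 promoters of the 38 members with a RefSeq entry and over all 32851 promoters of the same length. GTCTAGAC stood in 1 of the 46 member promoters (2.17%) and in 0.213% of all promoters, and GGCGCC in 15 of the 46 (32.6%) and in 11.9% of all. The longer form, GGCGCC followed 5 bases later by GTCT, stood in 0 of the 46 and in 0.0731% of all. A GGCGCC match also counts within the longer form, and the 4 windows shown hold 60.0% to 73.3% G and C. Such a match describes the letters of the window and not a bound site.

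The 6 libraries held 16101033 to 18642504 counts, and the 55 genes together took 0.390% to 0.451% of the counts in controls and 0.456% to 0.465% in Ni libraries. Control replicate 3 stood apart from the other controls. Over all 14624 genes that passed the filter on low counts, its distance (1 minus Pearson's r of log2 CPM) was 0.0209 and 0.0232 to the other controls and 0.0119 to 0.0140 to the Ni libraries. CPM are counts scaled to library size, with edgeR's TMM factors. Log2 fold changes are Ni over control, and the value after ± beside a log2 fold change is its standard error. Stromal markers made up 0.989%, 1.05% and 1.74% of the counts in controls 1 to 3 and 2.19% to 2.68% in Ni libraries, and 7 of the 10 were higher at an unadjusted p under 0.05. Osteoblast markers made up 0.593%, 0.529% and 1.21% in controls 1 to 3 and 1.13% to 1.66% in Ni libraries, and 10 of 10 were higher. In the absence of control replicate 3, 7 stromal and 8 osteoblast markers were higher at an adjusted p under 0.05. Macrophage markers made up 2.54% to 3.05% in controls and 2.55% to 2.62% in Ni libraries, with 2 of 12 lower, in cells labelled as mesenchymal. Of the other marker lists, 3 of 3 tested chondrocyte markers were higher, 1 of 2 osteoclast, 1 of 7 endothelial and 1 of 5 adipocyte markers were lower, and 0 of 5 smooth muscle and 0 of 2 neutrophil markers passed that level, and none of the 5 erythroid markers had enough counts to be tested. Smooth muscle markers took 0.0688% to 0.142% in controls and 0.122% to 0.131% in Ni libraries, chondrocyte markers 0.0142% to 0.0241% and 0.0273% to 0.0318%, osteoclast markers 0.0557% to 0.124% and 0.0573% to 0.0621%, adipocyte markers 0.0557% to 0.0888% and 0.0472% to 0.0637%, and endothelial and neutrophil markers at most 0.00768% in every library. The neutrophil genes S100a9, Ngp and Ltf, the haemoglobin genes Hbb-bs, Hbb-bt, Hba-a1 and Hba-a2 and the cartilage gene Col9a1 were at 0 in all 6 libraries. The part of these cell types in the results was not tested, and in bulk RNA fewer cells of a type and less RNA per cell cannot be told apart.

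Across the pathway, more genes lay higher than lower in the Ni libraries. The 5 smallest unadjusted p-values were those of Bmp8a, Bmp3, Id1, Bambi and Ltbp1, all with positive log2 fold changes, and the lower genes at an unadjusted p under 0.05 were Acvr1b, Bmp4, Bmp6 and Id4. None of the 52 members tested passed an adjusted p of 0.05 in edgeR's quasi-likelihood test, adjusted by Benjamini-Hochberg over all genes, where 0% of all tested genes passed. At an unadjusted p under 0.05, 14 members were higher, beside 7.59% of all tested genes, and 4 were lower, beside 5.83%. The 3 Ni libraries lay above all 3 controls in 10 members (7.97% of all tested genes) and below all 3 in 3 members (6.71%). The median log2 fold change of the 52 was 0.18, against -0.01 for all tested genes, and 35 of them (67.3%) were positive, against 48.1% of all. The members not tested were Bmp7, Gdf5 and Bmpr1b, with at most 10 counts in any library. Other tools gave other numbers of calls at an adjusted p of 0.05, with 0 members called by limma on FPKM, 5 by DESeq2 and 13 by edgeR with no filter on low counts. The last 2 fits covered all 55 members and 25876 genes. DESeq2 called 210 of those genes higher and 47 lower, and edgeR with no filter 660 higher and 367 lower. The default filter of DESeq2 can leave low-count genes without an adjusted p, so its adjustment may have covered fewer genes. With 3 libraries against 3, an exact two-sided permutation test of a single gene cannot go below p = 0.1.

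The number of calls turned on control replicate 3. In its absence 27 of the 52 members (51.9%) passed an adjusted p of 0.05, 20 of them higher and 7 lower, where 8.69% of all tested genes passed as higher and 6.49% as lower. Control replicate 3 was singled out because it lay near the Ni libraries in these same data, so leaving it out draws the groups apart. The p-values without it, given throughout the text, describe this dependence and are no separate support for a difference. In 39 of 52 members (75%), control replicate 3 lay beyond both other controls on the side of the Ni libraries, which was also the case in 66.1% of all tested genes. Of the 18 members at an unadjusted p under 0.05, 15 showed this placement and 12 had no overlap between groups. Genes picked by a low p tend to have separated groups, so the 12 are not a separate result. With all 6 libraries the groups did not overlap in 13 members, beside 14.7% of all tested genes, against 32 members beside 43.1% without control replicate 3 and 28 members beside 35.1% without Ni replicate 2. Leaving out any other library gave 0 members at an adjusted p of 0.05. At an unadjusted p the number of higher members was 8 without control replicate 1, 9 without control replicate 2 and 22 without control replicate 3, and lower members numbered 2 without control replicate 2 or Ni replicate 3 and 7 without control replicate 3. Over all tested genes the numbers moved as well, from 599 to 2285 higher and from 269 to 1840 lower with a library left out.

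**Figure D1:**
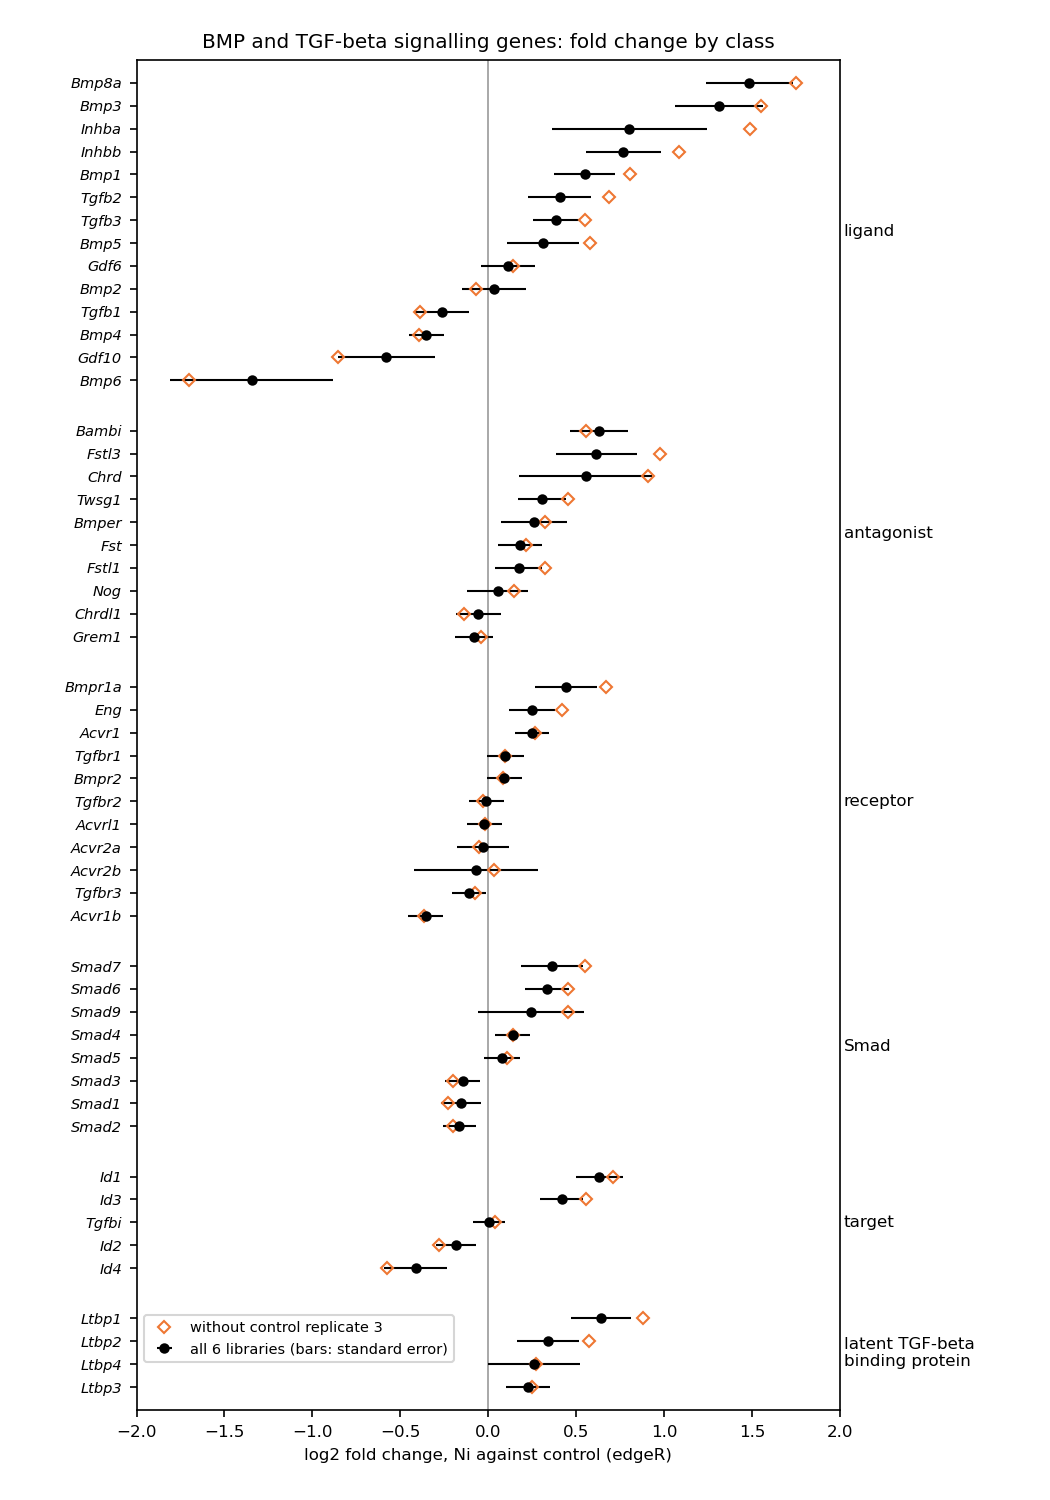
Log2 fold change of the 52 tested genes, Ni against control, grouped by role (x axis: log2 scale; black points: all 6 libraries, with bars of 1 standard error; open diamonds: without control replicate 3). Bmp8a and Bmp3 lie farthest to the right at 1.48 and 1.31, Bmp6 farthest to the left at -1.35, and the median of the ligands is 0.35 with all libraries and 0.56 without control replicate 3.

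BMP ligands lay on both sides of the controls. At an unadjusted p under 0.05, 5 of the 14 tested ligand genes were higher and 2 were lower, beside 7.59% and 5.83% of all tested genes. The median log2 fold change of the ligands was 0.35, against -0.01 for all tested genes. Bmp8a (ENSMUSG00000032726; chromosome 4 from 123312645 to 123343252, minus strand, GRCm38), a BMP best known from germ cells and fat, had 2.4, 2.46 and 3.9 CPM in controls 1 to 3 against 8.25, 6.85 and 9.39 CPM in Ni replicates 1 to 3. All Ni libraries were above all controls, and the highest control was replicate 3. These values rested on 44, 39 and 65 reads in controls 1 to 3 against 152, 119 and 170 reads in Ni replicates 1 to 3. Bmp8a showed a log2 fold change of 1.48 ± 0.25 (unadjusted p = 0.000127, adjusted p = 0.185 in edgeR's quasi-likelihood test). That adjusted p was the smallest of all tested genes and was shared by 13 of them. The estimate was 1.75 (adjusted p = 0.000477) without control replicate 3. Bmp8a shares 8.74% of its 50-base stretches with its neighbour Bmp8b, so part of its reads may belong to either gene.

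Bmp3 (ENSMUSG00000029335; chromosome 5 from 98854415 to 98884396, plus strand), a BMP of bone matrix known to oppose osteogenic BMPs, had 13.4, 11.5 and 19.3 CPM in controls 1 to 3 against 42.8, 25 and 41.8 CPM in Ni replicates 1 to 3. The groups did not overlap, with Ni replicate 2 the lowest of the Ni libraries and control replicate 3 the highest control. Mean levels were 14.7 ± 4.03 CPM (SD, n = 3) in controls against 36.6 ± 9.99 CPM (SD, n = 3) with Ni. Bmp3 had a log2 fold change of 1.31 ± 0.25 (unadjusted p = 0.000704, adjusted p = 0.208 in edgeR's quasi-likelihood test) and 1.55 (adjusted p = 0.00225) without control replicate 3. Bmp4 (chromosome 14 from 46383520 to 46390669, minus strand), a potent osteogenic BMP and the most abundant BMP ligand per length here, stood on the other side. It had 62.5, 60.3 and 55.2 CPM in controls 1 to 3 against 48.9, 48.1 and 42.5 CPM in Ni replicates 1 to 3, so that every Ni library lay below every control. Bmp4 had a log2 fold change of -0.35 ± 0.10 (unadjusted p = 0.00589, adjusted p = 0.289 in edgeR's quasi-likelihood test), and -0.40 (adjusted p = 0.0213) in the absence of control replicate 3. Bmp6 (chromosome 13 from 38345107 to 38500302, plus strand), which is also an inducer of hepcidin in iron balance, was a low gene with 57, 61 and 19 reads in controls 1 to 3 against 24, 20 and 13 reads in Ni replicates 1 to 3. Control replicate 3 lay within the Ni libraries and the other controls above them. Bmp6 had a log2 fold change of -1.35 ± 0.46 (unadjusted p = 0.0151, adjusted p = 0.311 in edgeR's quasi-likelihood test), and -1.70 (adjusted p = 0.00609) when control replicate 3 was left out. On the opposite strand, the gene Txndc5 covers 5.74% of the Bmp6 exon bases, so part of these few reads may belong to either gene.

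Bmp1 (chromosome 14 from 70474558 to 70520234, minus strand) encodes procollagen C-proteinase, which trims fibrillar collagens and cleaves the antagonist chordin, and is no true BMP. It had 164, 162 and 257 CPM in controls 1 to 3 against 302, 262 and 289 CPM in Ni replicates 1 to 3. All Ni libraries exceeded all controls, but control replicate 3 lay close to Ni replicate 2. Bmp1 had a log2 fold change of 0.55 ± 0.17 (unadjusted p = 0.011, adjusted p = 0.306 in edgeR's quasi-likelihood test) and 0.80 (adjusted p = 0.000204) without control replicate 3. The remaining BMP and GDF ligands were not past an unadjusted p of 0.05. Bmp2, a strong inducer of bone, stood at 19.9 ± 2.71 CPM (SD, n = 3) in controls against 20.3 ± 4.71 CPM (SD, n = 3) with Ni, with a log2 fold change of 0.03 ± 0.18. Gdf6, needed for joints, had a log2 fold change of 0.11, Bmp5 of 0.31 and Gdf10 of -0.58, and in the absence of control replicate 3 those of Bmp5 and Gdf10 were 0.58 (adjusted p = 0.0337) and -0.85 (adjusted p = 0.00634). For Bmp5, 46.7% of the exon bases lie under a gene on the opposite strand, and the library protocol in the labels does not mark strand.

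Among the activin and TGF-beta ligands, Inhbb (chromosome 1 from 119415465 to 119422248, minus strand), which encodes the activin beta B subunit, had 11.7, 14.7 and 22.8 CPM in controls 1 to 3 against 29.4, 27.6 and 26.8 CPM in Ni replicates 1 to 3. The groups did not overlap, and the Ni libraries were close together. Inhbb had a log2 fold change of 0.77 ± 0.21 (unadjusted p = 0.00553, adjusted p = 0.284 in edgeR's quasi-likelihood test) and 1.09 (adjusted p = 0.000328) without control replicate 3. Inhba, the activin beta A subunit, had 39.2, 34.7 and 104 CPM in controls 1 to 3 against 112, 84.6 and 113 CPM in Ni replicates 1 to 3. Here control replicate 3 stood among the Ni libraries and the other controls far below. Inhba had a log2 fold change of 0.80 ± 0.44 (adjusted p = 0.475) with all 6 libraries and 1.49 (adjusted p = 6.55e-05) without that control, the largest shift of any member between these fits. Tgfb3 had 47.6, 44.2 and 61.8 CPM in controls 1 to 3 against 68.7, 61.5 and 70.7 CPM in Ni replicates 1 to 3, with overlap of control replicate 3 and Ni replicate 2. Tgfb3 had a log2 fold change of 0.39 ± 0.13 (unadjusted p = 0.0149, adjusted p = 0.311 in edgeR's quasi-likelihood test) and 0.55 (adjusted p = 0.00379) without control replicate 3, and 12.4% of its exon bases lie under genes of the opposite strand. Tgfb1, the main TGF-beta of bone matrix, was at 360.0 ± 69.3 CPM (SD, n = 3) in controls against 300.2 ± 37.8 CPM (SD, n = 3) with Ni, with overlapping groups and a log2 fold change of -0.26 (adjusted p = 0.473), and of -0.39 (adjusted p = 0.0446) without control replicate 3. Tgfb2 was at 28.3 ± 8.52 CPM (SD, n = 3) in controls against 37.5 ± 0.946 CPM (SD, n = 3) with Ni, with a log2 fold change of 0.41 (adjusted p = 0.372), and of 0.68 (adjusted p = 0.00126) without control replicate 3.

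**Figure D2:**
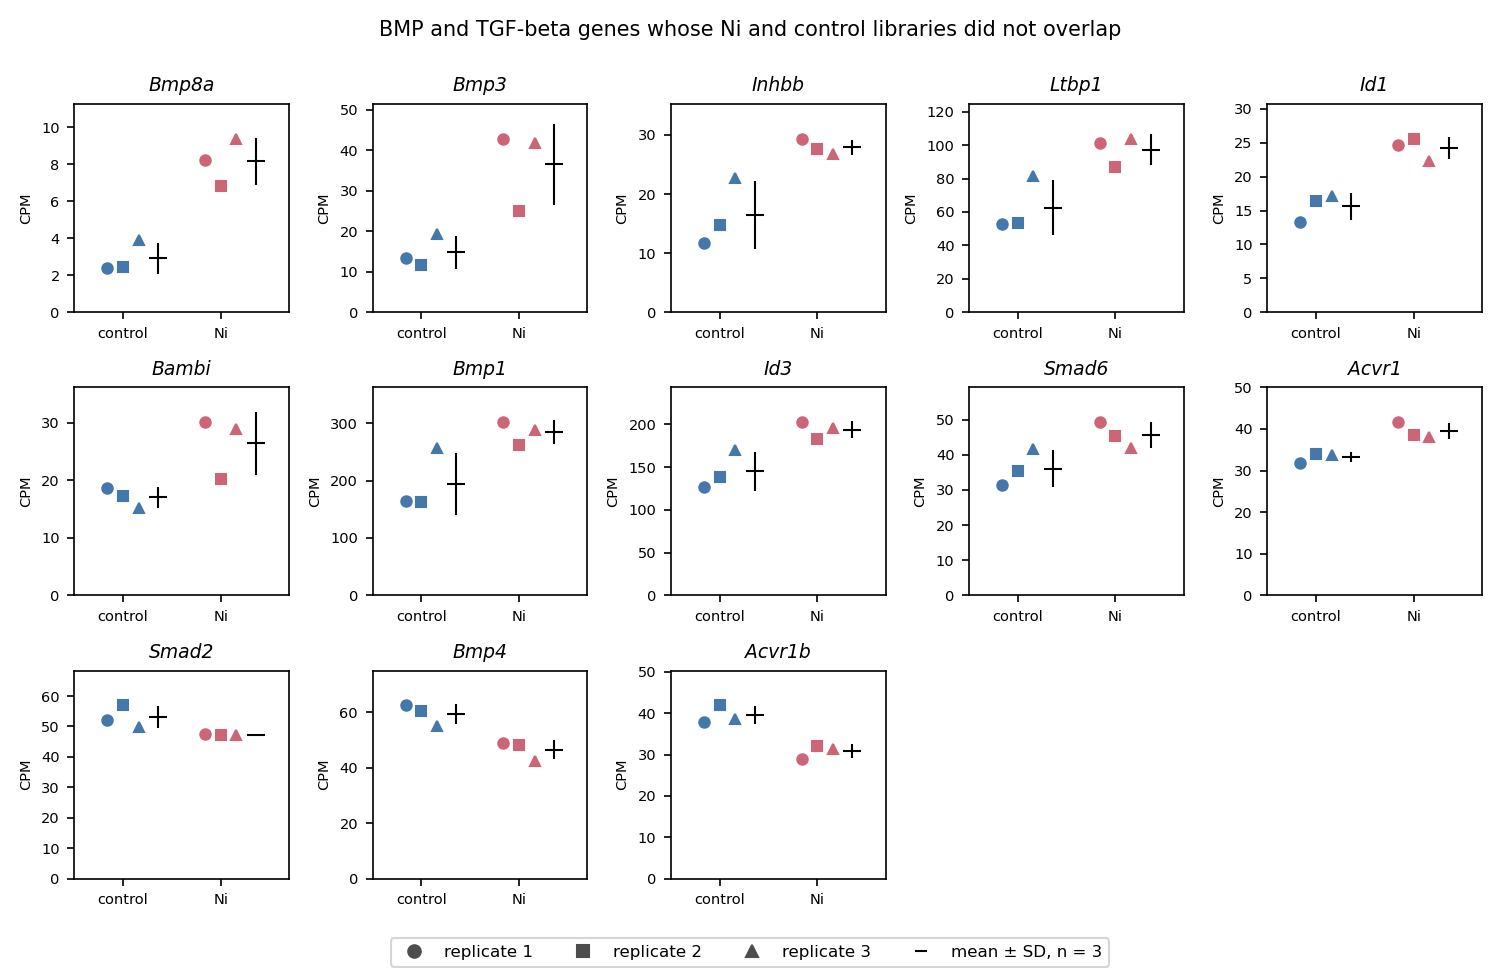
CPM per library (y axis, from 0) for the 13 genes whose Ni and control libraries did not overlap (x axis: control in blue and Ni in red; marker shapes: replicates 1 to 3; black cross: mean ± SD, n = 3). Ni libraries are above in 10 genes and below in Smad2, Bmp4 and Acvr1b, and control replicate 3 (blue triangle) is the control nearest to Ni in 10 of the 13.

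Antagonists and modulators mostly had positive values. At an unadjusted p under 0.05, 3 of the 10 genes were higher and 0 were lower, beside 7.59% and 5.83% of all tested genes. The median log2 fold change of the 10 was 0.22, and 0.32 without control replicate 3. Bambi, a pseudoreceptor without a kinase that damps both BMP and TGF-beta signals, had 18.7, 17.3 and 15.1 CPM in controls 1 to 3 against 30.1, 20.1 and 28.9 CPM in Ni replicates 1 to 3. No Ni library overlapped the controls, and control replicate 3 was the lowest of the 6 libraries. Bambi had a log2 fold change of 0.63 ± 0.16 (unadjusted p = 0.00323, adjusted p = 0.258 in edgeR's quasi-likelihood test) and 0.56 (adjusted p = 0.0435) without control replicate 3. Fstl3, a follistatin-like protein that binds activins, had 11.4, 12 and 21.6 CPM in controls 1 to 3 against 21.1, 24.7 and 22.9 CPM in Ni replicates 1 to 3, so that control replicate 3 lay within the Ni range. Fstl3 had a log2 fold change of 0.61 ± 0.23 (unadjusted p = 0.0262, adjusted p = 0.339 in edgeR's quasi-likelihood test) and 0.98 (adjusted p = 0.000592) without control replicate 3. On the opposite strand, the gene Prss57 covers 47.3% of the Fstl3 exon bases, and their reads cannot be told apart without strand. Twsg1, a BMP-binding partner of chordin, had 52.9, 50.2 and 67.5 CPM in controls 1 to 3 against 76.8, 60.6 and 73.5 CPM in Ni replicates 1 to 3, with overlap. Twsg1 had a log2 fold change of 0.31 ± 0.14 (unadjusted p = 0.0478, adjusted p = 0.371 in edgeR's quasi-likelihood test) and 0.45 (adjusted p = 0.0203) without control replicate 3.

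None of the classical secreted BMP antagonists (Nog, Grem1, Chrd, Chrdl1 and Bmper) passed an unadjusted p of 0.05, nor an adjusted p of 0.05 when control replicate 3 was left out. Nog (noggin) stood at 8.85 ± 1.35 CPM (SD, n = 3) in controls against 9.17 ± 0.902 CPM (SD, n = 3) with Ni, with a log2 fold change of 0.05 ± 0.18. Grem1 (gremlin) stood at 38.7 ± 1.61 CPM (SD, n = 3) in controls against 36.6 ± 3.61 CPM (SD, n = 3) with Ni, with -0.08 ± 0.11. Both log2 fold changes were smaller than their standard errors. Chrdl1 had a log2 fold change of -0.06, Bmper of 0.26 and chordin itself, Chrd, of 0.55 at 19, 31 and 45 reads in controls 1 to 3 against 54, 34 and 62 reads in Ni replicates 1 to 3. Fst (follistatin), which traps activins, was at 64.4 ± 6.3 CPM (SD, n = 3) in controls against 73.1 ± 10.3 CPM (SD, n = 3) with Ni and had a log2 fold change of 0.18 (adjusted p = 0.553). Fstl1, the most abundant member per length, was at 785 ± 133 CPM (SD, n = 3) in controls against 884 ± 8.66 CPM (SD, n = 3) with Ni, with 0.17 (adjusted p = 0.603) and 0.32 (adjusted p = 0.0234) without control replicate 3.

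Most receptor transcripts lay close to the controls. The 11 tested receptors had a median log2 fold change of -0.01. At an unadjusted p under 0.05 there were 2 higher and 1 lower, beside 7.59% and 5.83% of all tested genes. Bmpr1a (chromosome 14 from 34410734 to 34503341, minus strand), the main type I BMP receptor of osteoblasts, had 41.4, 40 and 61.3 CPM in controls 1 to 3 against 69.3, 54.1 and 70.4 CPM in Ni replicates 1 to 3. Control replicate 3 lay above Ni replicate 2, and the other controls lay below every Ni library. Bmpr1a had a log2 fold change of 0.44 ± 0.18 (unadjusted p = 0.0328, adjusted p = 0.349 in edgeR's quasi-likelihood test) and 0.67 (adjusted p = 0.00342) without control replicate 3. Acvr1 (chromosome 2 from 58388644 to 58567157, minus strand), the type I receptor mutated in a heritable disease of ectopic bone, had 31.8, 33.9 and 33.8 CPM in controls 1 to 3 against 41.7, 38.5 and 38.1 CPM in Ni replicates 1 to 3. The groups did not overlap and control replicate 3 lay with the other controls. Acvr1 had a log2 fold change of 0.25 ± 0.10 (unadjusted p = 0.0276, adjusted p = 0.34 in edgeR's quasi-likelihood test) and 0.27 (adjusted p = 0.125) without control replicate 3.

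Acvr1b (chromosome 15 from 101174067 to 101213684, plus strand), the type I receptor for activin, lay on the other side with 38, 41.9 and 38.6 CPM in controls 1 to 3 against 29, 32.2 and 31.4 CPM in Ni replicates 1 to 3. Every Ni library was below every control, again with control replicate 3 among the controls. Acvr1b had a log2 fold change of -0.36 ± 0.10 (unadjusted p = 0.00524, adjusted p = 0.283 in edgeR's quasi-likelihood test) and -0.37 (adjusted p = 0.0432) without control replicate 3. For Tgfbr1 and Tgfbr2 the log2 fold changes were no larger than their standard errors. Tgfbr2, the type II TGF-beta receptor and the most abundant receptor per length, was at 378 ± 11.9 CPM (SD, n = 3) in controls against 375 ± 18.5 CPM (SD, n = 3) with Ni with a log2 fold change of -0.01 ± 0.10, and Tgfbr1, its type I partner, at 144 ± 9.13 CPM (SD, n = 3) in controls against 154 ± 15.6 CPM (SD, n = 3) with Ni with 0.10 ± 0.11. Eng (endoglin), an accessory receptor, was at 54.1 ± 10.1 CPM (SD, n = 3) in controls against 64.4 ± 2.76 CPM (SD, n = 3) with Ni with 0.25 (adjusted p = 0.421), and at 0.42 (adjusted p = 0.0123) without control replicate 3. The other 5 tested receptors, Bmpr2, Acvrl1, Acvr2a, Acvr2b and Tgfbr3, had log2 fold changes between -0.11 and 0.09.

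Of the 8 Smads, the inhibitory ones had the highest log2 fold changes. Smad6 (chromosome 9 from 63953076 to 64022059, minus strand), which blocks BMP receptor signalling and whose promoter is printed above, had 31.3, 35.4 and 41.6 CPM in controls 1 to 3 against 49.3, 45.2 and 42 CPM in Ni replicates 1 to 3. The groups did not overlap, but control replicate 3 was within 1 CPM of Ni replicate 3. Smad6 had a log2 fold change of 0.34 ± 0.12 (unadjusted p = 0.0221, adjusted p = 0.334 in edgeR's quasi-likelihood test) and 0.45 (adjusted p = 0.0195) without control replicate 3. Smad7, which blocks both branches, had 21.6, 26.5 and 33.6 CPM in controls 1 to 3 against 35.4, 40.7 and 28.8 CPM in Ni replicates 1 to 3, with overlap through control replicate 3. Smad7 had a log2 fold change of 0.36 ± 0.18 (adjusted p = 0.402) and 0.55 (adjusted p = 0.0326) without control replicate 3. Receptor-activated Smads had log2 fold changes of -0.15 for Smad1 and 0.08 for Smad5 on the BMP side, and of -0.17 for Smad2 and -0.15 for Smad3 on the TGF-beta side. Smad2 had 52.3, 57 and 49.9 CPM in controls 1 to 3 against 47.7, 47.1 and 47.1 CPM in Ni replicates 1 to 3, below all controls without overlap, yet with an unadjusted p of 0.111 and an adjusted p of 0.465 in edgeR's test. Smad9, the least abundant Smad, had a log2 fold change of 0.24 ± 0.30. The common partner Smad4 stood at 72.7 ± 0.935 CPM (SD, n = 3) in controls against 80 ± 8.44 CPM (SD, n = 3) with Ni, with 0.14 (adjusted p = 0.575). The median over the Smads was 0.11, and it was -0.05 without Ni replicate 3.

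The Id genes encode proteins that hold back basic helix-loop-helix factors. Id1 and Id3 were higher with Ni without overlap, while Id2 and Id4 had negative log2 fold changes with overlapping groups. Id1 (chromosome 2 from 152736251 to 152737410, plus strand) had 13.4, 16.4 and 17.1 CPM in controls 1 to 3 against 24.7, 25.6 and 22.4 CPM in Ni replicates 1 to 3. All Ni libraries were above all controls with a gap of more than 5 CPM, and control replicate 3 was close to control replicate 2. Id1 had a log2 fold change of 0.63 ± 0.13 (unadjusted p = 0.000714, adjusted p = 0.208 in edgeR's quasi-likelihood test) and 0.71 (adjusted p = 0.00495) without control replicate 3. Id3 (chromosome 4 from 136143497 to 136145755, plus strand) had 127, 138 and 170.5 CPM in controls 1 to 3 against 203, 183 and 196 CPM in Ni replicates 1 to 3, again with no overlap and with control replicate 3 the nearest control. Id3 had a log2 fold change of 0.42 ± 0.12 (unadjusted p = 0.0062, adjusted p = 0.292 in edgeR's quasi-likelihood test) and 0.55 (adjusted p = 0.00165) without control replicate 3.

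Id4 (chromosome 13 from 48261228 to 48266026, plus strand) had 18.3, 16.6 and 11.7 CPM in controls 1 to 3 against 12.7, 11.7 and 10.6 CPM in Ni replicates 1 to 3. Control replicate 3 was level with Ni replicate 2, and the other controls were above every Ni library. Id4 had a log2 fold change of -0.41 ± 0.18 (unadjusted p = 0.0448, adjusted p = 0.367 in edgeR's quasi-likelihood test) and -0.58 (adjusted p = 0.0196) without control replicate 3. Id2 (chromosome 12 from 25093799 to 25097140, minus strand) had 195, 198 and 156 CPM in controls 1 to 3 against 164, 168 and 152 CPM in Ni replicates 1 to 3, with overlap through control replicate 3. Id2 had a log2 fold change of -0.18 ± 0.11 (adjusted p = 0.504), and -0.28 (adjusted p = 0.0481) without control replicate 3. Tgfbi, a matrix protein named for its induction by TGF-beta, was at 142 ± 5.65 CPM (SD, n = 3) in controls against 142 ± 6.29 CPM (SD, n = 3) with Ni and had a log2 fold change of 0.00 ± 0.09.

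**Figure D3:**
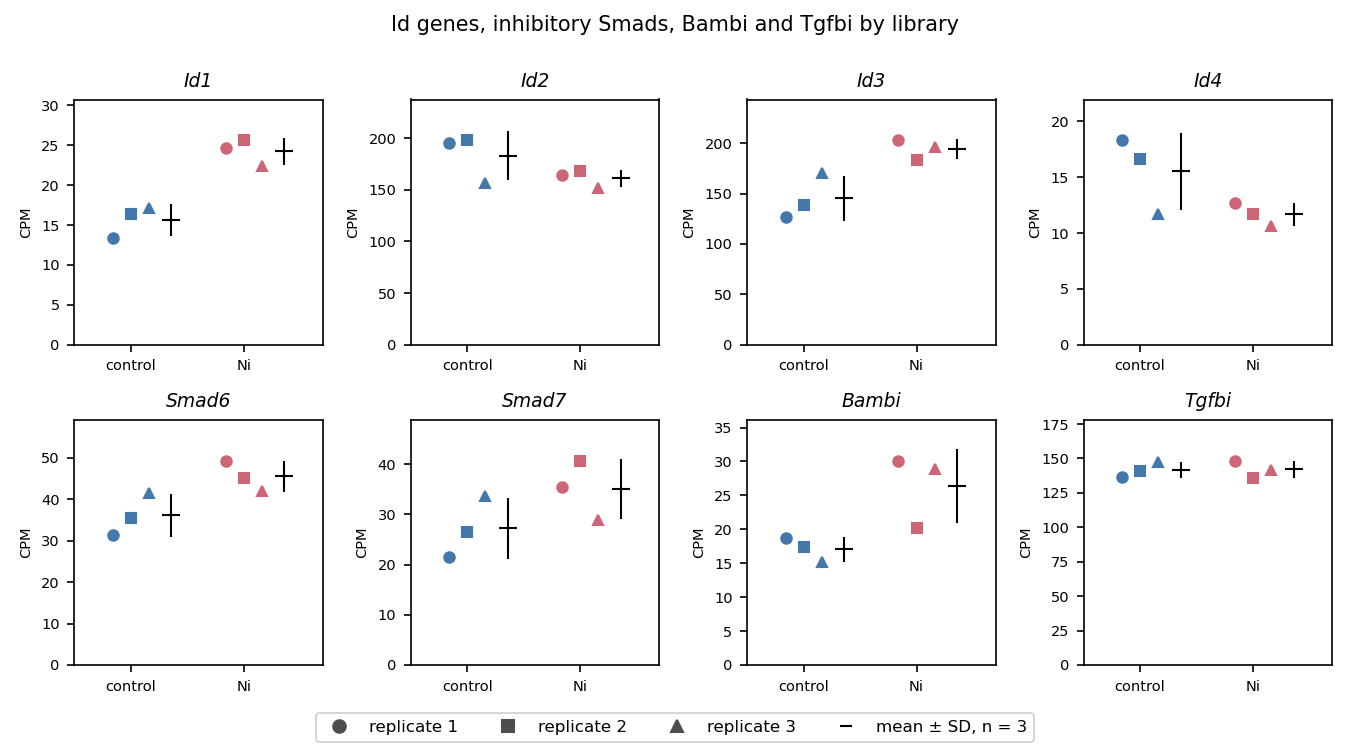
CPM per library (y axis, from 0) for Id1 to Id4, Smad6, Smad7, Bambi and Tgfbi (x axis: control in blue and Ni in red; marker shapes: replicates 1 to 3; black cross: mean ± SD, n = 3). Id1, Id3, Smad6 and Bambi lie higher in Ni libraries without overlap, Id2 and Id4 overlap only through control replicate 3, and Tgfbi is at 142 CPM in both groups.

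All 4 latent TGF-beta binding proteins had positive log2 fold changes, from 0.23 to 0.64, and 1 had an unadjusted p under 0.05. Of all tested genes, 48.1% were positive and 7.59% were higher at that level. Ltbp1 (chromosome 17 from 75005568 to 75392512, plus strand), which anchors latent TGF-beta in the matrix, had 52.8, 53.2 and 81.6 CPM in controls 1 to 3 against 102, 86.7 and 104 CPM in Ni replicates 1 to 3. The groups did not overlap, and control replicate 3 was nearer to Ni replicate 2 than to the other controls. Ltbp1 had a log2 fold change of 0.64 ± 0.17 (unadjusted p = 0.00434, adjusted p = 0.273 in edgeR's quasi-likelihood test) and 0.88 (adjusted p = 0.00025) without control replicate 3. Ltbp2, which associates with elastic fibres, was at 292 ± 73.9 CPM (SD, n = 3) in controls against 369 ± 54.5 CPM (SD, n = 3) with Ni, with a log2 fold change of 0.34 (adjusted p = 0.43), and of 0.57 (adjusted p = 0.00517) without control replicate 3. Ltbp3, expressed in bone and teeth, was at 84.8 ± 1.94 CPM (SD, n = 3) in controls against 99.2 ± 17.3 CPM (SD, n = 3) with Ni, with 0.23 (adjusted p = 0.453), and Ltbp4 was low, at 44, 39 and 41 reads in controls 1 to 3 against 66, 42 and 50 reads in Ni replicates 1 to 3, with 0.26 ± 0.26.

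Levels between genes were compared on the deposited FPKM scale, reads scaled to gene length and library size. Mean levels of the 52 tested genes ran from 0.371 FPKM (Chrd) to 169 FPKM (Fstl1), with a median of 8.34 FPKM. Fstl1 alone made up 70.7% to 74.2% of the summed FPKM of the antagonists in controls and 70.9% to 73.5% in Ni libraries. Id3 stood at 80.4 ± 12.4 FPKM (SD, n = 3) in controls against 108 ± 6.03 FPKM (SD, n = 3) with Ni, Id2 at 74.5 ± 9.66 FPKM (SD, n = 3) in controls against 65.8 ± 3.21 FPKM (SD, n = 3) with Ni, Id1 at 13.4 ± 1.68 FPKM (SD, n = 3) in controls against 20.8 ± 1.38 FPKM (SD, n = 3) with Ni and Id4 at 4.01 ± 0.892 FPKM (SD, n = 3) in controls against 3.02 ± 0.273 FPKM (SD, n = 3) with Ni.

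Bmp4 made up 59.4%, 57.3% and 55.7% of the summed BMP and GDF ligand FPKM (Bmp1 left out) in controls 1 to 3 and 45.7%, 46.6% and 43.8% in Ni replicates 1 to 3. Bmp3 made up 3.33% to 5.90% in controls and 7.37% to 13.1% in Ni libraries, and Bmp8a 2.14% to 3.68% and 6.20% to 9.03%. These 3 genes were picked for the differences given above, so their shares describe the same values on another scale. Bmp4 was the most abundant BMP ligand in every library. Tgfb1, at 70.8 ± 13.7 FPKM (SD, n = 3) in controls against 59.2 ± 7.28 FPKM (SD, n = 3) with Ni, made up 70.0% to 83.4% of the Tgfb1 to Tgfb3 FPKM in controls and 65.2% to 73.1% in Ni libraries, with overlap. Summed over a class, FPKM were 171 ± 7.62 in controls and 185 ± 7.57 in Ni libraries for the ligands (SD, n = 3 each, as below). That sum includes Bmp1, which alone stood at 21.8 ± 6.00 and 31.9 ± 2.41. The sums were 136 ± 3.25 and 141 ± 3.96 for the receptors, and 209.6 ± 6.58 and 235 ± 7.99 for the targets. For the antagonists they were 219 ± 30.9 and 249 ± 8.39, and for the Smads 73.7 ± 2.46 and 78.2 ± 3.51. The latent TGF-beta binding proteins summed to 57.9 ± 10.7 and 73.5 ± 7.61. In all but the ligand and target sums, control replicate 3 lay within the Ni range. In the sum of the receptors, Tgfbr2 held 31.8% to 35.6% in controls and 30.7% to 34.3% in Ni libraries. Inhibitory Smads, Smad6 with Smad7, held 20.4% to 27.0% of the Smad FPKM in controls and 24.8% to 30.6% in Ni libraries, with overlap.

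**Figure D4:**
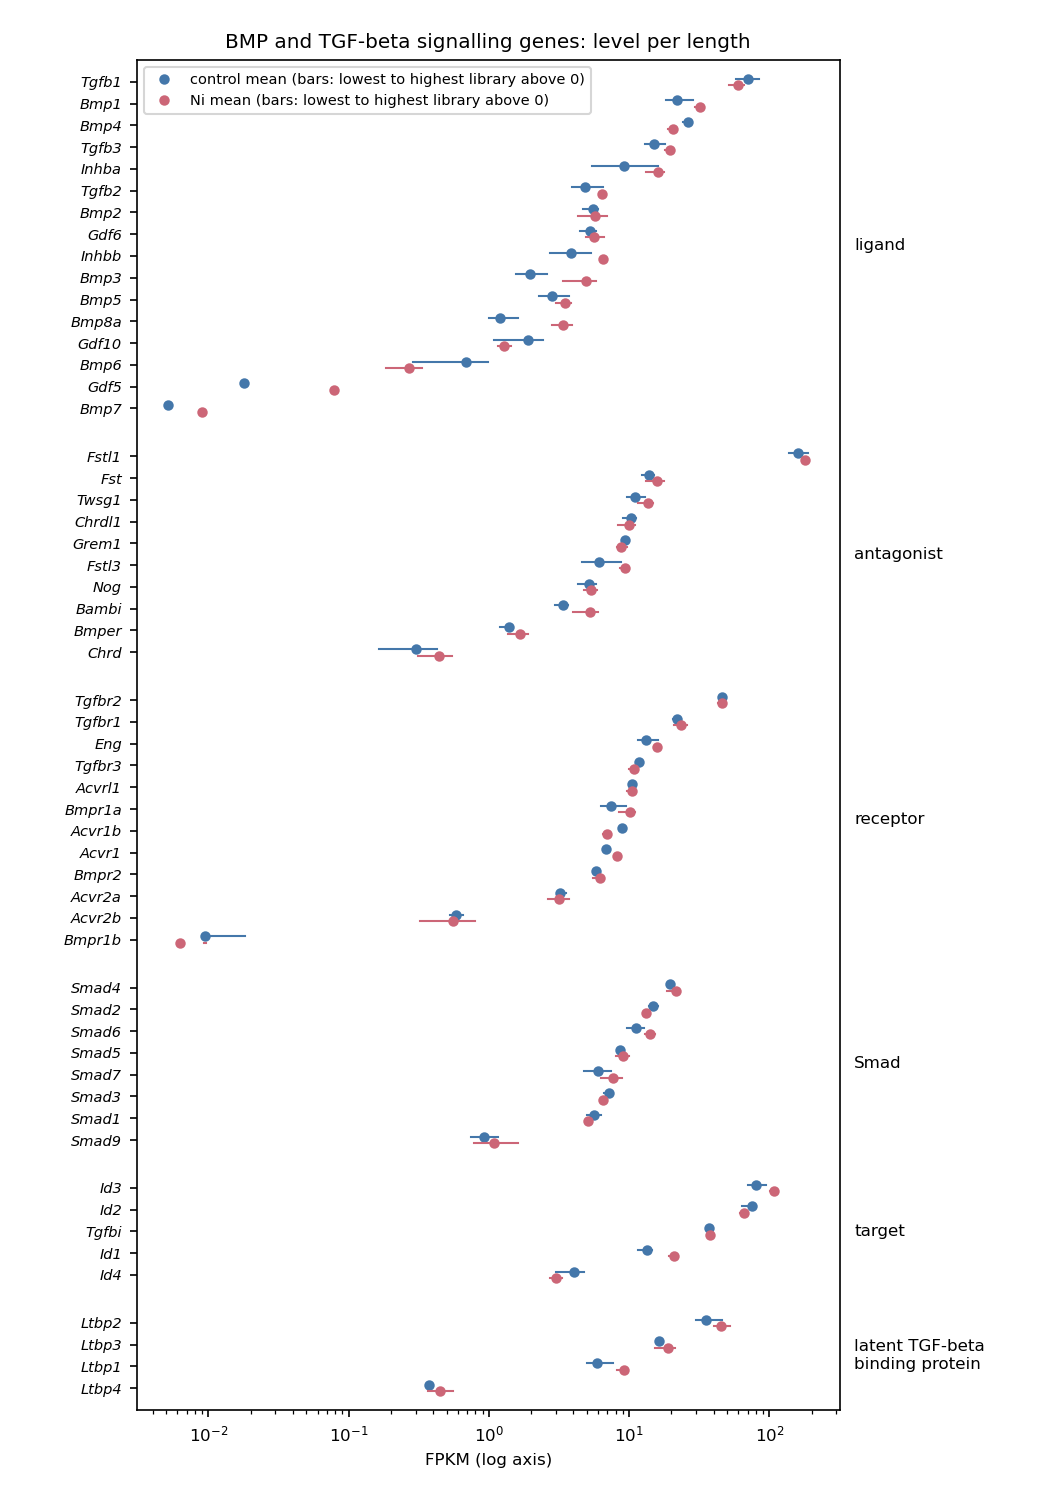
Mean FPKM per group of all 55 genes, by role (x axis: log scale; blue: control, red: Ni; bars: lowest to highest library, leaving out libraries at 0). Levels run from 0.371 FPKM for Chrd to 169 FPKM for Fstl1 among the tested genes, and Bmp7, Gdf5 and Bmpr1b, which were not tested, lie below 0.1 FPKM.

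A further 76 genes of the pathway outside the 55 were listed, also with earlier results of these data known, and 53 were tested. At an unadjusted p under 0.05, 15 were higher and 1 lower, beside 7.59% and 5.83% of all tested genes. At an adjusted p of 0.05 in edgeR's test, 0 passed. In the absence of control replicate 3, 16 of 55 tested were higher at an adjusted p under 0.05 and 0 lower. Of all tested genes, 8.69% were then higher and 6.49% lower. Of the other target genes, 6 of 10 tested were higher at an unadjusted p under 0.05 with all 6 libraries. Among them, Ccn2 had a log2 fold change of 0.40, Tsc22d1 of 0.39, the BMP-responsive factor Atoh8 of 0.45, and the homeobox genes Msx1 and Dlx5 of 0.69 and 0.54. The groups did not overlap for these 5 genes, nor for 14.7% of all tested genes.

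Outside the cell, Pcsk6, a convertase that activates TGF-beta family precursors, had 8.47, 8.57 and 12.4 CPM in controls 1 to 3 against 31.8, 17.5 and 31.4 CPM in Ni replicates 1 to 3. No library overlapped between the groups. Pcsk6 had a log2 fold change of 1.46 ± 0.25 (unadjusted p = 0.00028, adjusted p = 0.208 in edgeR's quasi-likelihood test) and 1.66 (adjusted p = 0.00221) without control replicate 3. Smoc2, Htra3 and Vasn, all reported to modulate BMP or TGF-beta signals, had log2 fold changes of 0.81, 0.59 and 0.39 with no overlap, and Htra1 of 0.61 with overlap. Rgma, a BMP co-receptor, was the 1 lower gene, at -0.94, from 28, 15 and 21 reads in controls 1 to 3 against 14, 13 and 8 reads in Ni replicates 1 to 3. Bmp8b, the neighbour of Bmp8a, had 1, 3 and 6 reads in controls 1 to 3 against 21, 21 and 37 reads in Ni replicates 1 to 3. Bmp8b passed the filter on low counts through the Ni libraries alone, so no fold change or p is given for it, although the counts of 15 and 16 higher genes include it. Inside the cell, the ubiquitin ligase Smurf2 and the Smad-binding membrane protein Lemd3 had log2 fold changes of 0.28 and 0.26, and 19 of the 21 tested regulators were not past an unadjusted p of 0.05. Neither of the other receptors, Acvr1c and Amhr2, passed the filter.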

How the data were processed

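The authors deposited whole-number read counts per gene for 54532 genes in 6 libraries (3 control, 3 Ni), not normalized, the FPKM of the same genes, scaled to gene length and library size, and a table of gene names, GRCm38 coordinates and gene lengths. The library protocol in the labels does not mark strand. The aligner, counting tool, annotation release and strand setting are not given in the sources used here. Members were matched on gene name and joined by gene ID to the counts. The members and all lists of pathway genes and markers were chosen with earlier results of these data known.

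Genes passing edgeR's filterByExpr (minimum count 10; 14624 genes) were normalized by TMM and tested with the quasi-likelihood test of edgeR 4.0.16 (R 4.3.3; robust fit, with a prior count of 0.125), and p-values were adjusted by Benjamini-Hochberg over all tested genes. The threshold was 0.05. A standard error is the unshrunk coefficient over the square root of F. Overlap between groups was read from log2 CPM (prior count 2). Totals of 16101033 to 18642504 counts limit the precision of low genes, and intervals and errors cover these libraries only. The alternatives were DESeq2 size factors in edgeR, no filter, at least 10 counts in every library, the Wald test of DESeq2 1.42.0, limma 3.58.1 on log2(FPKM + 1) and log2(FPKM + 0.1), a replicate block, and leaving out each library. The fits were also run on simulated counts with changes set in some genes and no control placed near the Ni libraries. Those runs do not bear on the calls that turned on control replicate 3. Named are members with an unadjusted p under 0.05, the 3 tested members of each class with the highest mean FPKM, and members that did not pass the filter; other members with values in the text were added after their values were seen. Some of the other pathway genes counted in the text are not reported here by name. Shared 50-base stretches and opposite-strand exons were taken from GENCODE transcripts. Promoters are from RefSeq (GRCm38.p6); 38 members matched, and Id1, Bambi and Bmp3 are named only.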

Additional observations from a re-analysis of the deposited data

How the results depend on the processing

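Of 390 values of the 30 named members under 13 alternatives, 341 kept their direction and side of an adjusted p of 0.05, 43 kept their direction and passed it, and 6 changed sign. All 6 belong to Tgfbr2 and Tgfbi, whose log2 fold changes were near 0: Tgfbr2 was 0.0019 when no filter was applied and -0.036 to 0.030 with a library left out, and Tgfbi -0.028 to 0.040. The number of members at an adjusted p under 0.05 was 0 with all 6 libraries, 13 without a filter on low counts, 5 in DESeq2's Wald test and 0 to 27 with a library left out, the 27 without control replicate 3. Over all tested genes it was 0, 1027 with no filter, 257 in DESeq2 and 0 to 2283 with a library left out, and at an unadjusted p under 0.05 no filter gave 1768 higher and 1289 lower genes; the causes were not tested. Leaving out a library gave 8 to 22 higher and 2 to 7 lower members and 599 to 2285 higher and 269 to 1840 lower genes at an unadjusted p under 0.05, and 13 to 32 members whose groups did not overlap, of which 28 without Ni replicate 2, where 35.1% of all tested genes did not overlap, and 32 without control replicate 3, where 43.1% did not, against 14.7% with all 6 libraries. Class medians then ran from 0.23 to 0.56 for ligands, -0.022 to 0.085 for receptors and -0.054 to 0.19 for Smads, the last negative without Ni replicate 3. DESeq2 size factors in edgeR, the stricter filter and limma on FPKM changed no call of a named member.

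With the replicate number as a block, 4 members (Bmp3, Bmp8a, Id1 and Ltbp1) and 315 genes passed an adjusted p of 0.05. The deviations of libraries with the same number correlated at 0.01, 0.26 and 0.14. Control replicates 2 and 3 correlated best with the Ni library of the same number, and control replicate 1 with Ni replicate 3 (0.054). The sources used here do not pair the cultures, and correlations this small cannot decide whether the numbers do. At 16101033 to 18642504 counts per library, Bmp7, Gdf5 and Bmpr1b, with at most 10 counts, could not be compared.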
